A study of Mus musculus with 5 samples.

Results

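The genes described here are 8 secreted antagonists of Wnt signalling (Sfrp1, Sfrp2, Frzb, Sfrp5, Notum, Dkk1, Dkk2 and Dkk3) and 2 Wnt response genes (Lef1 and Axin2). They were chosen by name, with their levels in both genotypes and the ratio between them already known, so these values describe the genes and carry no test. All 10 were found, with 1 transcript each, among 14693 gene symbols. RNA-seq was done on the atrioventricular canal (AVC), the part of the embryonic heart between atria and ventricles where the endocardial cushions form the valves. Both groups were C57BL/6 mice at embryonic day 12.5 with floxed Sox9. Controls had the genotype Sox9fl/fl:+/+ (WT) and the mutants Sox9fl/fl:Tie2-Cre/+ (cKO). Tie2-Cre acts in endothelial and blood lineages and in the cushion mesenchyme that descends from endothelium, while the dissected tissue also held myocardium. AVCs were pooled, 2 libraries were made per genotype, and 1 merged value per genotype was deposited. The spread between libraries and the read depth are therefore unknown, and every comparison below is one of size, with no p-value.

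Wnt proteins are lipid-modified signals that bind Frizzled receptors and the co-receptors LRP5 and LRP6. In the canonical branch this stabilises beta-catenin, which enters the nucleus and activates genes together with TCF and LEF factors. Secreted antagonists act outside the cell: sFRP proteins bind Wnts through a Frizzled-like domain, Dickkopf proteins block LRP5 and LRP6, and the enzyme NOTUM removes the lipid from Wnts. Wnt signals act in the endocardial cushions, where they are known for roles in cell proliferation and in valve remodelling.

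Levels are the authors' normalized FPKM (nFPKM), which scale fragments to transcript length and to library size, so genes can be compared per length. Differences are given as the log2 ratio of cKO to WT after adding 1 nFPKM to each value, minus the median of the same quantity over 13793 transcripts (the relative log2 ratio). These transcripts reached 1 nFPKM in at least 1 genotype, the level filter used throughout. That median was -0.11, while percentages of change are given on the nFPKM themselves without this adjustment. The middle 90% of relative log2 ratios lay between -0.45 and 0.49. A difference was called 2-fold where the relative log2 ratio was at least 1 in size. Sox9, the targeted gene, had a level of 36.7 nFPKM in WT against 14.7 nFPKM in cKO, which gave a relative log2 ratio of -1.16.

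Promoter sequences from RefSeq (build GRCm38.p6) were matched for 7 of the 10 genes, and none for Sfrp1, Notum and Dkk3. Each covered 250 bases before and 50 bases from the annotated start. They were searched on both strands for the TCF/LEF motif, spelled CTTTGAA or else CTTTGAT or else CTTTGTA or else CTTTGTT, and for the SOX motif AACAAT. All but the last letter of the SOX motif also occur in the reverse complement of the last TCF/LEF spelling. Shown are the promoters of the antagonist with the most negative ratio (Sfrp2), of the response gene Axin2 and of the antagonist with the only positive ratio (Dkk1), on each gene's own strand and with matches in capitals.
Sfrp2, chr3:83766071-83766370, plus strand: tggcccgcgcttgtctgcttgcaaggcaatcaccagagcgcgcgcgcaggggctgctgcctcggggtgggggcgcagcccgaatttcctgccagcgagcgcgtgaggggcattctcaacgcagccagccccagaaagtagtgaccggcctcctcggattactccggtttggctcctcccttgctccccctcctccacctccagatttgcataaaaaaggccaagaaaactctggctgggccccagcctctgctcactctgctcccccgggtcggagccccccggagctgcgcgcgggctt
Axin2, chr11:108920099-108920398, plus strand: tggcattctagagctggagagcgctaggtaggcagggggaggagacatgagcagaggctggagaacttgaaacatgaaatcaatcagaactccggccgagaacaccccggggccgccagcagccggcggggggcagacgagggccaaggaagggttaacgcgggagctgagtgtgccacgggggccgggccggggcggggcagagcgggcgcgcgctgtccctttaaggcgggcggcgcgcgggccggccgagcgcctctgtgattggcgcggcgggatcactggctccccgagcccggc
Dkk1, chr19:30549447-30549746, minus strand: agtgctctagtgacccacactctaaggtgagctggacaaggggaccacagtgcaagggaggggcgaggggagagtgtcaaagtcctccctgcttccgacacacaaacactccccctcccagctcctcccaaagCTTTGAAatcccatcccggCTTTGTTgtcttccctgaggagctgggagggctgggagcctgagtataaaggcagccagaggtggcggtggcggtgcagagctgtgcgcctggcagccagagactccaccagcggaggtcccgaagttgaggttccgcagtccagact
Dkk1 held 2 TCF/LEF matches, the first beginning 117 bases and the second 98 bases before the annotated start. At least 2 such matches were present in 1.94% of 32851 promoters of equal length, and at least 1 in 16.9%. Of the other matched genes, only Lef1 held a TCF/LEF match, in 1 of its 4 annotated promoters. The SOX motif, searched in the spelling AACAAT only, was in none of the 10 matched promoters and in 10.7% of all promoters. The 10 include the 4 of Lef1, which partly overlap, so nothing is read from this absence. A match describes letters in this window and is not a binding site. The promoters shown for Axin2 and Sfrp2 were rich in G and C, at 70.0% and 66.0%, against a median of 52.7% over all promoters.

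Of the 10 genes, 9 had a negative relative log2 ratio, antagonists and response genes alike, and the exception was the barely detected Dkk1. Sfrp2 and Notum were called at least 2-fold lower in cKO, and none of the 10 was called higher. Over all transcripts compared, 0.674% were at least 2-fold lower and 0.834% at least 2-fold higher. Because the genes were chosen with this contrast known, nothing is read from their count. Notum (-1.05) lay just inside the 2-fold limit and Frzb (-0.84) was the nearest gene outside it.

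**Figure D1:**
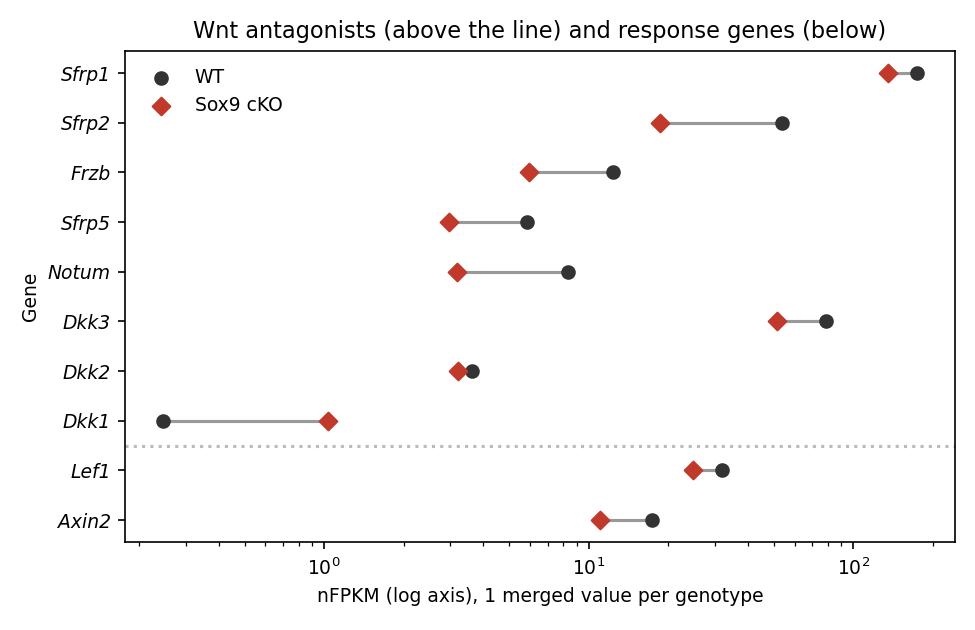
Level of each gene in WT (circles) and Sox9 cKO (diamonds) in nFPKM on a log axis, 1 merged value per genotype, antagonists above the dotted line and response genes below. The cKO value lies to the left of the WT value for every gene but Dkk1, and the widest gap among well detected genes is that of Sfrp2, from 53.7 to 18.5 nFPKM.

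The sFRP family gave most of the antagonist signal in both genotypes. Sfrp1 was the most abundant of the 10 genes, with 174 nFPKM in WT against 135 nFPKM in cKO, and 94.6% of transcripts in the table had a lower WT level. It was 22.3% lower in cKO, a relative log2 ratio of -0.25. This lay inside the middle 90% of all transcripts, of which 13.7% had a lower ratio. Among the 1328 transcripts between 100 and 300 nFPKM, where ratios scatter less, 6.40% had a lower ratio. It lay inside the middle 90% of these too, which ran from -0.28 to 0.46.

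Sfrp2 stood at 53.7 nFPKM in WT against 18.5 nFPKM in cKO, 65.5% lower. Its relative log2 ratio of -1.38 was more negative than that of Sox9 itself, and 31 of 13793 transcripts had a lower ratio. Sfrp1 and Sfrp2, close relatives that can both bind Wnts, therefore differed in how far they stood apart between genotypes. The level of Sfrp1 was 3.24 times that of Sfrp2 in WT and 7.30 times in cKO.

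Frzb, which encodes sFRP3 and is well known from cartilage, stood at 12.4 nFPKM in WT against 5.95 nFPKM in cKO (relative log2 ratio -0.84). Sfrp5 stood at 5.85 and 2.98 nFPKM (-0.68). Both were about as far below their WT level on the linear scale, 52.0% for Frzb and 49.1% for Sfrp5, with the pseudocount compressing the ratio of the lower one. All 4 sFRP genes were thus below the all-transcript median, with relative log2 ratios from -1.38 to -0.25. Their summed level was 246 nFPKM in WT and 163 nFPKM in cKO.

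Notum stood at 8.31 nFPKM in WT against 3.17 nFPKM in cKO, 61.9% lower, with a relative log2 ratio of -1.05. It encodes the Wnt deacylase, and in several tissues it is itself a feedback target of the pathway. Its size of difference depended on the pseudocount, since with 5 nFPKM added the relative log2 ratio was -0.62 and no longer 2-fold.

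Of the Dickkopf genes only Dkk3 stood at a high level, and no direction is read from the low values of Dkk2 and Dkk1. Dkk3, a divergent family member whose effect on Wnt signalling is less settled, was the second most abundant antagonist, at 78.5 nFPKM in WT against 51.4 nFPKM in cKO (relative log2 ratio -0.50). Dkk2 stood at 3.63 and 3.21 nFPKM, a relative log2 ratio of -0.03, which turned to 0.01 with 5 nFPKM added. It was the gene nearest to the all-transcript median.

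Dkk1, a strong LRP5 and LRP6 blocker and a known target of the pathway, stood at 0.25 nFPKM in WT against 1.04 nFPKM in cKO. The gene reached the level filter only through its cKO value. Its relative log2 ratio was 0.81, against 1.02 in the authors' deposited table and 1.83 with 0.1 nFPKM added. Both values were near the bottom of the table, only 0.517% of transcripts having a lower WT level, and without depth the number of reads behind them is unknown.

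**Figure D2:**
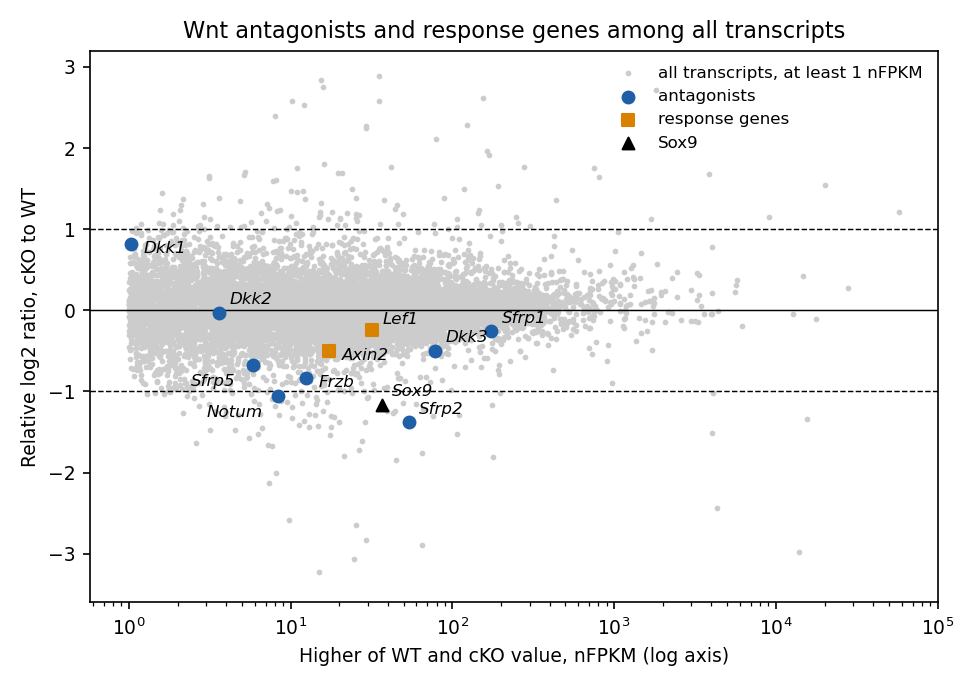
Relative log2 ratio of cKO to WT against the higher of both values in nFPKM (log axis) for 13793 transcripts (grey), with the antagonists, Lef1, Axin2 and Sox9 marked and the 2-fold limits dashed. Ratios scatter more at low levels, where Dkk1, Dkk2, Sfrp5 and Notum lie, and Sfrp2 lies beside Sox9 below the lower limit.

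Summed over genes, the 8 antagonists stood at 337 nFPKM in WT against 222 nFPKM in cKO, 34.2% lower. Sfrp1 made up 51.7% of the sum in WT and 61.1% in cKO, while Sfrp2 made up 15.9% and 8.37%. The share of Dkk3 was nearly the same in both, at 23.3% and 23.2%. Of the 115 nFPKM between the sums, Sfrp1 accounted for 33.7%, Sfrp2 for 30.6% and Dkk3 for 23.5%. These sums are not adjusted for the all-transcript median of -0.11. The ratio of Sfrp1 lay inside the middle 90% of all transcripts. The antagonist mix was thus more dominated by Sfrp1 in cKO, while Notum, Frzb, Sfrp5 and Dkk2 together added little to either sum.

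**Figure D3:**
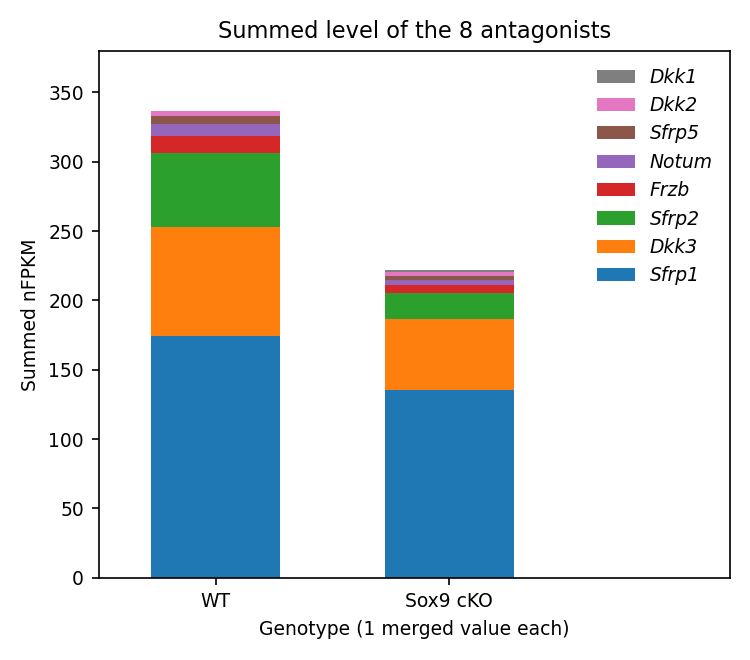
Summed nFPKM of the 8 antagonists in WT and Sox9 cKO, 1 merged value per genotype, stacked by gene. The stack is 337 nFPKM high in WT and 222 nFPKM in cKO, and the segments of Sfrp1, Dkk3 and Sfrp2 make up most of both stacks.

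The response genes were also lower in cKO, by less than several antagonists. Axin2, a scaffold of the beta-catenin destruction complex and a widely used readout of canonical signalling, stood at 17.4 nFPKM in WT against 11.0 nFPKM in cKO, 36.5% lower (relative log2 ratio -0.50). Lef1, an HMG-box factor that binds DNA with beta-catenin and is itself induced by Wnt in many tissues, stood at 31.9 and 24.8 nFPKM, 22.3% lower (-0.24). The ratio of Lef1 lay inside the middle 90% of all transcripts, of which 14.6% had a lower ratio. For Axin2, 4.00% had a lower ratio. Lef1 is listed as the single transcript NM_001276402, so its isoforms cannot be compared.

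The median relative log2 ratio was -0.59 for the 8 antagonists, -0.68 for the 7 without Dkk1, and -0.37 for Lef1 and Axin2. The antagonist median minus that of Lef1 and Axin2 was -0.21. The ranges overlapped, since Axin2 lay beside Dkk3 (both -0.50) and Lef1 (-0.24) beside Sfrp1 (-0.25), with Dkk2 (-0.03) above both response genes. The difference between medians was -0.11 with 5 nFPKM added, -0.27 with 0.1 nFPKM added, -0.24 from the authors' deposited table and -0.30 at a minimum of 3 nFPKM, which left out Dkk1. Both medians thus stood on the same side of the all-transcript median, with the antagonist median the lower in each of these settings. That order describes the chosen genes. Outside these genes it was the other way, with medians of -0.08 for 7 other antagonists and -0.19 for 13 other response genes. Without replicates the size of the gap has no error.

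Other response genes stood mostly below the all-transcript median, in a list that was also chosen with earlier results of these data known. Of 15 further listed genes 13 were found among the gene symbols, and all of these reached the level filter. Of the 13, 12 lay below the all-transcript median. None was 2-fold different. Their median was -0.19, with the median of all transcripts at 0 by construction. The largest ratios were those of Nkd1 (17.9 nFPKM in WT and 11.0 in cKO, -0.55) and Nkd2 (-0.43), which encode feedback inhibitors that bind Dishevelled, and of the receptor gene Tnfrsf19 (-0.38). The most abundant were Ccnd1, which encodes cyclin D1 (116 and 95.4 nFPKM, -0.18), and Wisp1 (62.9 and 49.4 nFPKM, -0.24). The gene above the all-transcript median was the receptor ubiquitin ligase gene Znrf3, at 0.05. Single differences of this size lay mostly inside the middle 90% of all transcripts.

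Antagonists outside the 8 showed no common direction. Of 14 listed genes 9 were found among the gene symbols and 7 passed the filter. Of the 7, 4 lay below and 3 above the all-transcript median, with a median of -0.08. Shisa2, whose relative in frog retains Frizzled receptors in the endoplasmic reticulum, was the only one called, at 64.9 nFPKM in WT against 17.1 nFPKM in cKO (-1.76). Dkkl1, a relative of Dkk3, stood at 2.12 and 0.48 nFPKM (-0.97). Sost, which encodes the LRP5 and LRP6 inhibitor sclerostin, went the other way, at 4.27 and 7.94 nFPKM (0.87). Igfbp4, a growth factor binding protein that can also inhibit Wnt signalling, was the most abundant, at 256 and 269 nFPKM (0.18). Apcdd1 (-0.19) was counted both in this list and among the other response genes.

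The ligand list had members on both sides of the all-transcript median, more of them above. Of 21 listed genes of ligands and their secretion 12 were found among the gene symbols, and all of these reached the filter. Of the 12, 8 lay above the all-transcript median and 4 below, with a median of 0.21. Wnt7a was the only one called, at 0.40 nFPKM in WT against 2.08 nFPKM in cKO (1.24), and it reached the filter only through its cKO value. Wnt9b, a ligand of the endocardium, stood at 8.41 and 13.1 nFPKM (0.69), and Wnt9a at 2.71 and 3.76 nFPKM (0.46). The ligand transporter gene Wls, at 171 and 181 nFPKM (0.18), and Wnt5a, at 32.1 and 30.7 nFPKM (0.04), were the most abundant. Below the median lay Wnt2 (-0.32), the ligand acyltransferase gene Porcn (-0.31), Wnt5b (-0.14) and Wnt16 (-0.12).

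Receptors and the cytoplasmic machinery stood near the all-transcript median. No gene was called, while over all transcripts 0.674% were called lower and 0.834% higher. The 15 receptor and co-receptor genes had a median of 0.01, with Fzd5 at 0.54 and Fzd7 and Fzd8 at -0.44 and -0.33. The abundant Ryk and Fzd2 stood at 0.00 and -0.25. The 13 genes of the destruction complex and Dishevelled had a median of -0.04, and Ctnnb1, which encodes beta-catenin, stood at 701 nFPKM in WT against 612 nFPKM in cKO (-0.09). Within that list Axin1, the constitutive relative of Axin2, stood at -0.30, Dvl1 at 0.27 and Csnk1a1 at 0.20.

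The 11 TCF partners and co-regulators had a median of -0.08. Tle2, a co-repressor, stood furthest from it, at 13.2 and 6.20 nFPKM (-0.88), followed by the beta-catenin co-activator genes Pygo1 (-0.33) and Pygo2 (-0.31), while the adaptor Bcl9 stood at -0.08. Of 7 R-spondin and receptor genes 5 were found and 3 passed, with Rspo1 at -0.30, Rspo3 at -0.01 and Lgr4 at 0.08. The 8 planar cell polarity genes that passed had a median of 0.04, from Vangl2 at -0.28 to Celsr2 at 0.36, with Celsr1 at 0.22, Daam1 at 0.11 and Prickle1 at -0.05. Over all lists outside the 10 genes, 80 Wnt pathway genes reached the filter, their median was -0.04 and 45 lay below the all-transcript median. The TCF partner Tcf7, also listed among the other response genes, and Apcdd1 were each counted once here. Of these 80, 1 was called lower and 1 higher. Over all transcripts compared, 0.674% were called lower and 0.834% higher, so nothing is read from the calls in these lists.

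**Figure D4:**
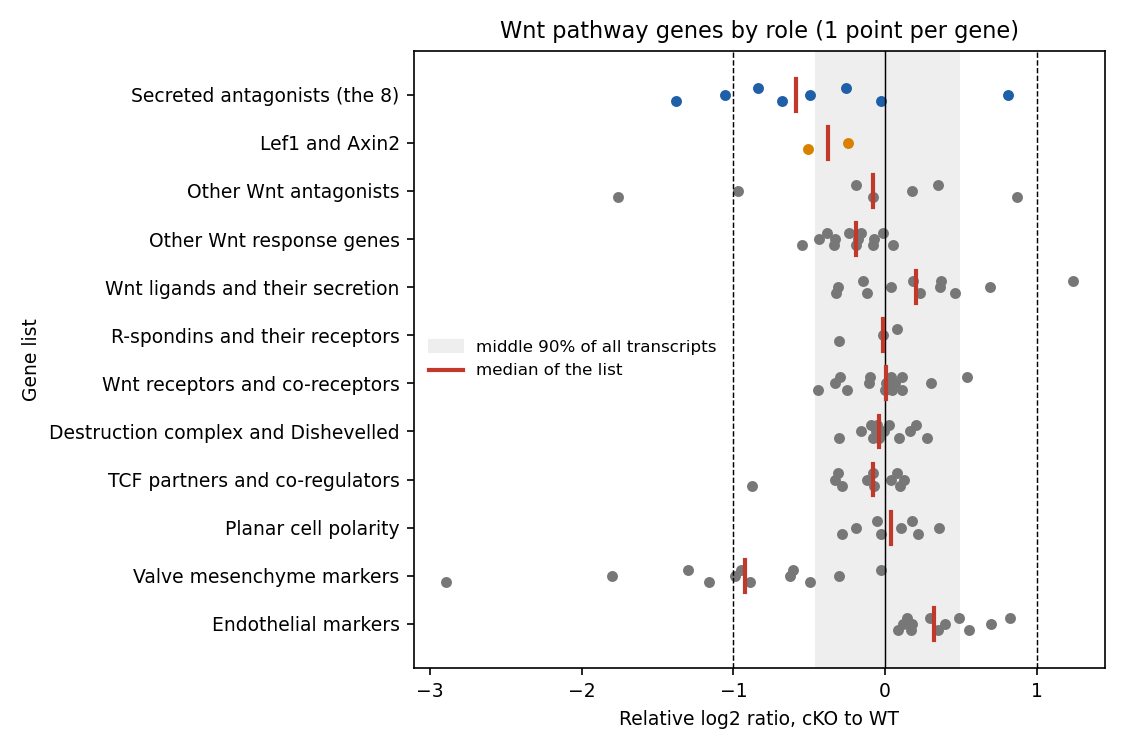
Relative log2 ratio of cKO to WT for each gene that passed the level filter, by role in the Wnt pathway, with the median of each list in red, the middle 90% of all transcripts in grey and the 2-fold limits dashed. The 8 antagonists have a median of -0.59 and Lef1 and Axin2 of -0.37, while receptors, destruction complex and planar polarity genes centre near 0. Valve mesenchyme markers centre at -0.92 and endothelial markers at 0.32.

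Markers of the cell types in the dissected tissue differed between the pools as well. All 12 valve mesenchyme markers, a list that includes Sox9, were below the all-transcript median, with a median of -0.92, and their summed level was 3658 nFPKM in WT and 2236 nFPKM in cKO, 38.9% lower. Postn stood at 973 and 487 nFPKM and Col3a1 at 905 and 545 nFPKM. The summed level of the 8 antagonists was 34.2% lower in the same values. In bulk tissue, fewer mesenchymal cells and less RNA of these genes per cell cannot be told apart, and the part of cell makeup in the antagonist and response gene values was not tested.

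All 12 endothelial markers were above the all-transcript median, with sums of 1081 nFPKM in WT and 1290 in cKO; Eng stood at 148 and 155 nFPKM and Cdh5 at 145 and 178 nFPKM. The 12 cardiomyocyte markers divided evenly, 6 above and 6 below, with sums of 43242 and 44107 nFPKM, led by Myl2 (-0.04) and Actc1 (0.43). Of 8 epicardial markers 7 were above, with sums of 240 and 343 nFPKM, led by Upk3b (0.51) and Tbx18 (-0.17). All 10 erythroid markers were above, with sums of 41090 and 93225 nFPKM, led by Hbb-y (1.21) and Hba-x (1.55). Of 7 macrophage markers 4 were below, with sums of 121 and 102 nFPKM, led by Lyz2 (-0.27) and Csf1r (0.09). All 5 neural crest and glia markers in the table were below, with sums of 30.8 and 15.3 nFPKM, led by Erbb3 (-0.68) and Dct (-2.01). No transcript of any kind had a value of 0 in either genotype, so the lack of such values among the markers is no result about them. The pools also differed in sex-linked transcripts, with Xist at 175 nFPKM in WT against 71.6 nFPKM in cKO and the Y-linked Ddx3y at 4.26 and 35.2 nFPKM. Whether this bears on any Wnt gene was not tested.

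With 1 value per genotype, a pattern consists of 2 levels. By Euclidean distance over both log2 levels, the protein-coding transcripts nearest to Sfrp2 were Meox1 (49.5 nFPKM in WT and 20.2 in cKO, distance 0.17) and Shisa2 (distance 0.29). Those nearest to Axin2 were Nkd1 (distance 0.04) and Rap2b (distance 0.05). Those nearest to Lef1 were Ing1 and Mettl6, both at distances of about 0.01.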

How the data were processed

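Expression values came from AVC RNA of 1 WT and 1 cKO group at embryonic day 12.5, grouped by the genotype labels. The deposited table gives FPKM that the authors normalized further (nFPKM) and merged over duplicate libraries, per the file headers and file name. How they did so is not stated. TopHat2, Cufflinks and edgeR, without versions, and the build mm9 come from the submitters' processing notes. Sequencing used MiSeq and NextSeq instruments, per the labels. A log2 fold change computed by the authors was deposited beside the levels, without p-values.

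All 14697 transcripts were read, 904 with under 1 nFPKM in both genotypes were left out, and log2 ratios (pseudocount 1) were centred on the median of the remaining 13793. Depth is unknown, so no intervals were given. The computation was tested on simulated data. Python 3.11.15, numpy 2.4.6, pandas 2.3.3 and matplotlib 3.10.9 were used.

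The genes and lists were chosen with earlier results of these data known. Beside the 10 genes, the text names Sox9 and up to 3 genes per Wnt list with the largest absolute ratio. It also names the 2 most abundant of each Wnt and marker list, and nearest patterns. Znrf3, Wnt2, Porcn, Wnt5b, Wnt16, Xist and Ddx3y were chosen after their values were seen. Apcdd1 and Tcf7 are named because each was in 2 lists. For symbols with several transcripts the most abundant one was used. SOX9 peaks are in mm9 and the annotation used is GRCm38.p6, so peaks were not placed near these genes. Other pseudocounts and filters, no centring, the authors' fold change and removal of globins were tried.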

Additional observations from a re-analysis of the deposited data

How the results depend on the processing

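Under 7 alternatives, Sfrp2 stayed at least 2-fold lower in cKO, with log2 ratios from -1.49 to -1.24, as did Sox9. Sfrp1, Frzb, Sfrp5, Dkk3, Lef1 and Axin2 stayed negative and short of 2-fold in all 7. By the authors' deposited fold changes, and also with a pseudocount of 0.1, 1 of the 10 genes (Dkk1) was at least 2-fold higher. With a pseudocount of 5, 1 gene, Sfrp2, was at least 2-fold lower instead of 2, and the antagonist median minus that of Lef1 and Axin2 was -0.11. At a minimum of 3 nFPKM, Dkk1 was left out. Transcripts at least 2-fold lower and higher numbered 93 and 115, against 261 and 235 with a pseudocount of 0.1 and 36 and 45 with 5; the authors' deposited values gave 165 lower and 145 higher. A smaller pseudocount compresses ratios of low genes less. Without centring, 135 were lower and 82 higher, so the higher share was 37.8% instead of 55.3%. With globins, 4.24% of summed nFPKM in WT and 9.65% in cKO, left out, 113 were lower and 113 higher.

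No paired analysis was possible because each genotype has 1 merged value; for the same reason no fit without a library was run. Across the alternatives Notum ranged from -1.25 to -0.62, Sfrp5 from -0.84 to -0.36 and Dkk1 from 0.28 to 1.83, and depth is unknown for all of them.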
